A study of Ovis aries and Capra hircus and Bos taurus with 26 samples.

Results

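The gene-poor chromosomes described here are cattle 12 and 24, sheep 10 and 23, and goat 12 and 24. They are the homologues of human chromosomes 13 and 18. Members were all H3K27ac and H3K4me3 peaks called in liver on these 6 chromosomes, taken by the name of the sequence. The rule uses no peak value, although these chromosomes were picked with earlier results of these data known. They numbered 23982 of the 616400 peaks of the series, or 3.89%, of which 13855 were H3K27ac peaks and 10127 were H3K4me3 peaks. Of the members, 12648 lay on the homologues of human 13 (cattle 12, sheep 10, goat 12) and 11334 on the homologues of human 18 (cattle 24, sheep 23, goat 24). The other autosomes, used for comparison, held 542299 peaks, and the remaining peaks lay on sex chromosomes or on sequence not placed on a chromosome.

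The study profiled frozen liver of 9 adult, healthy and untreated animals by chromatin immunoprecipitation followed by sequencing (ChIP-seq), with 3 Holstein cattle, 3 Texel sheep and 3 Yunnan black goats. According to the methods the cattle were of an older age range than the sheep and goats. There were 8 H3K27ac libraries (cattle B and C, sheep A, B and C, goat A, B and C) and 9 H3K4me3 libraries (A, B and C of each species), where a letter names an animal within its species. The marks could therefore be set side by side within 8 animals. Whole liver holds several cell types, so a peak cannot be assigned to hepatocytes, and the tissue label was not checked against marker genes because no annotation of the builds was used.

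H3K27ac, acetylation of lysine 27 of histone H3, is deposited at active promoters and enhancers. H3K4me3, trimethylation of lysine 4, concentrates at active and poised promoters, so H3K27ac without H3K4me3 is the usual signature of an enhancer away from a promoter. Human chromosomes 13 and 18 are known for few genes, a late replication in much of their length and long gene deserts, and they are among the few autosomes whose trisomy is compatible with birth. A gene desert is a long stretch without protein-coding genes, which may still carry distant enhancers of developmental genes.

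The gene-poor label was checked for sheep by counting coding genes per chromosome name in a RefSeq table of another sheep assembly (ARS-UI_Ramb_v3.0). Sheep 10 held 347 of 20201 autosomal coding genes, or 1.72%, and made up 3.66% of the autosomal length. That ratio of gene share to length share, 0.469, was the lowest of the 26 sheep autosomes. Sheep 23 held 286 genes (1.42% of the genes, 2.57% of the length), and its ratio of 0.550 ranked 3 from the lowest, with sheep 16 between them at 0.525. No such table of cattle or goats was used here, so in those species the label rests on homology alone.

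Length was taken as the highest end of any peak on a chromosome over the libraries of a species. It was 87.2 Mb for cattle 12 and 62.2 Mb for cattle 24 (build ARS-UCD1.2). It was 97.2 Mb for sheep 10 and 68.3 Mb for sheep 23 (Oar_rambouillet_v1.0), and 86.8 Mb for goat 12 and 62.3 Mb for goat 24 (ARS1). The pair of chromosomes made up 6.01% of the autosomal length of cattle, 6.24% of that of sheep and 6.05% of that of goats. Across the 17 libraries they held between 968 and 2048 peaks each, which was 4.11 to 4.40% of the autosomal peaks of a library. A peak list carries no read number, so the depth was not measured here, and each library held 24809 to 50842 peaks in all.

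The first comparison asked whether peaks were sparser on these chromosomes than on the other autosomes of the same library. They were sparser for both marks in every library. In cattle, H3K27ac peaks had a density of 11.2 per Mb in animal B and 12.5 in animal C on the gene-poor chromosomes, against 15.7 and 17.4 on the other autosomes. In sheep the H3K27ac densities were 9.50, 8.97 and 10.3 per Mb in animals A, B and C, against 14.8, 13.7 and 15.3. In goats they were 11.4, 13.7 and 12.2 per Mb, against 16.7, 20.2 and 18.1. Within each species, the highest density on the gene-poor chromosomes lay below the lowest on the other autosomes. The log2 ratio, gene-poor over other autosomes, averaged -0.56 ± 0.05 (SD, n = 8 libraries), a ratio of 0.678 (two-sided exact permutation test flipping the sign of each library's value, p = 0.00781, adjusted p = 0.0104). This is the smallest p that 8 libraries allow. Adjusted values are by Benjamini-Hochberg over 20 tests throughout. The p-values cover only the spread between animals, because all animals of a species carry the same chromosomes and these were not drawn at random.

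H3K4me3 peaks showed a deficit of the same size. The H3K4me3 densities on the gene-poor chromosomes were 7.77, 6.62 and 7.25 per Mb in cattle A, B and C, against 10.8, 9.68 and 10.4 on the other autosomes. Sheep A, B and C had 6.92, 7.66 and 7.52 per Mb, against 10.4, 11.3 and 11.1. Goats A, B and C had 6.49, 7.52 and 7.69 per Mb, against 9.73, 11.2 and 11.4. All 9 libraries were lower on the gene-poor chromosomes, by a mean log2 ratio of -0.55 ± 0.04 (SD, n = 9), or a ratio of 0.682 (two-sided exact permutation test by sign flips, p = 0.00391, the smallest that 9 libraries allow, adjusted p = 0.0104).

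**Figure D1:**
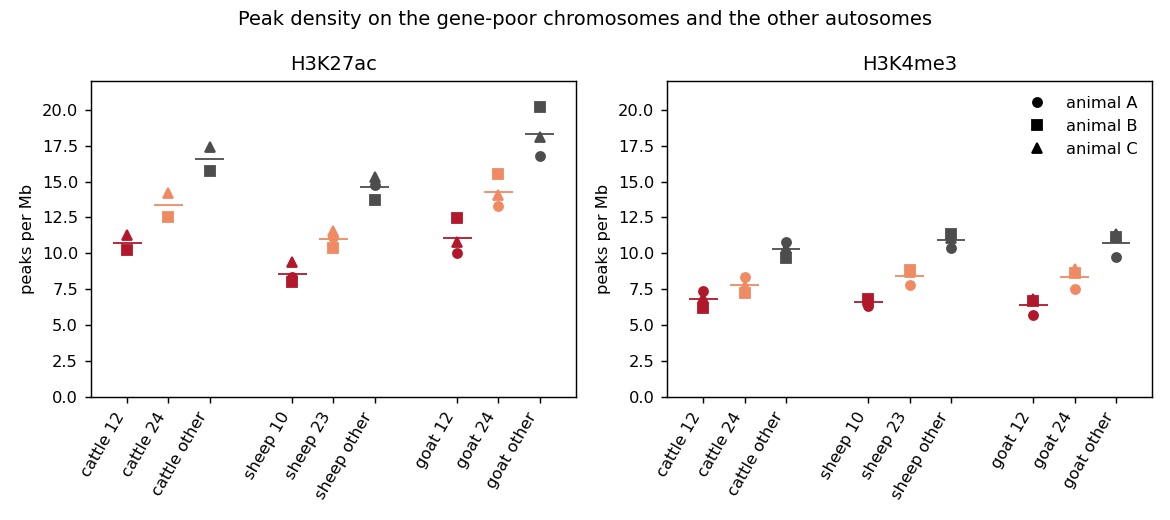
Peaks per Mb of each library (points, shape by animal) and their mean (line) on the homologue of human 13, the homologue of human 18 and the other autosomes pooled, for H3K27ac (left) and H3K4me3 (right). In each species the homologue of human 13 lies lowest, at 8.59 to 11.1 H3K27ac peaks per Mb on average, and all points of both gene-poor chromosomes lie below those of the other autosomes of the same species.

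The difference between the marks in this deficit, H3K27ac minus H3K4me3 averaged over the species, was 0.0003 on the log2 scale (two-sided exact permutation test of mark labels within species, p = 0.984 for 17 libraries, adjusted p = 0.984). The smallest p its 4000 arrangements allow is 0.0005. The mean over animals differed in sign between species: cattle had 0.05 (0.04 to 0.06, n = 2), sheep -0.04 (-0.05 to -0.01, n = 3) and goats 0.01 (-0.01 to 0.03, n = 3). With peaks closer than 500 bp merged, the difference was 0.04 and passed the threshold of 0.05 (p = 0.0448, same exact permutation test). The sign of this difference turned under 6 other settings and on leaving out any of 5 animals, so no direction is given for it.

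The share of sequence under peaks was lower as well. H3K27ac peaks covered 0.49 to 0.78% of the gene-poor chromosomes and 0.76 to 1.17% of the other autosomes, a difference of -0.34 ± 0.04 percentage points (SD, n = 8) that was negative in all 8 libraries. H3K4me3 peaks covered 0.49 to 0.64% and 0.75 to 1.01%, a difference of -0.32 ± 0.03 percentage points (SD, n = 9), negative in all 9. Among the 1000 strongest autosomal peaks of a library by −log10 q, 30 to 49 lay on the gene-poor chromosomes, or 3.0 to 4.9%. These chromosomes held 4.11 to 4.40% of all autosomal peaks of a library. For H3K27ac the strong share was 4.3 to 4.9%, above the share of all peaks in every library. For H3K4me3 it was 3.0 to 4.7%, below the share of all peaks except in cattle A, sheep B and goat A.

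The homologues of human 13 and 18 were not equally poor. The homologue of human 13 had the lower density for both marks in all 17 libraries. For H3K27ac the log2 ratio of the first to the second was -0.35 ± 0.05 (SD, n = 8), a ratio of 0.784 (two-sided exact permutation test by sign flips, p = 0.00781, adjusted p = 0.0104). For H3K4me3 it was -0.31 ± 0.09 (SD, n = 9), a ratio of 0.806 (same exact permutation test, p = 0.00391, adjusted p = 0.0104). Against the other autosomes, the H3K27ac density of the homologue of human 13 was 0.609 times as high (log2 ratio -0.72 ± 0.07, SD, n = 8) and that of the homologue of human 18 was 0.776 times as high (log2 ratio -0.37 ± 0.04, SD, n = 8). The corresponding H3K4me3 ratios were 0.620 and 0.769 (log2 ratios -0.69 ± 0.07 and -0.38 ± 0.03, SD, n = 9).

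Ranked among all autosomes of its species by mean H3K27ac density, the homologue of human 13 was the lowest in all 3 species. Cattle 12 had 10.7 ± 0.76 peaks per Mb (SD, n = 2), sheep 10 had 8.59 ± 0.74 and goat 12 had 11.1 ± 1.25 (SD, n = 3 each). Its nearest neighbour was cattle 6 at 10.8 peaks per Mb, sheep 16 at 9.92 and goat 6 at 12.1. Compared within each library, sheep 10 and goat 12 were below that neighbour in all 3 animals, by 1.33 ± 0.23 and 0.99 ± 0.20 H3K27ac peaks per Mb (SD, n = 3). Cattle 12 was below cattle 6 by 0.16 in animal B and above it by 0.02 in animal C, so these are not separated. By H3K4me3 density the homologue of human 13 was again lowest in sheep (6.60 peaks per Mb, with sheep 16 at 6.61) and goats (6.42, with goat 20 at 6.61). In cattle it ranked 4 from the lowest at 6.81 peaks per Mb, behind cattle 20 at 6.08, cattle 6 at 6.38 and cattle 1 at 6.72. Within each library, goat 12 was below goat 20 in 3 of 3 animals, by 0.19 ± 0.11 H3K4me3 peaks per Mb (SD), and sheep 10 was below sheep 16 in 2 of 3. Cattle 12 was above cattle 20 and cattle 6 in 3 of 3 animals, by 0.73 ± 0.21 and 0.43 ± 0.21 (SD), and below cattle 1 in 1 of 3.

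The homologue of human 18 was not among the sparsest autosomes. By H3K27ac density it ranked 7 of 29 in cattle (13.4 peaks per Mb), 7 of 26 in sheep (11.01) and 8 of 29 in goats (14.3), counted from the lowest. By H3K4me3 density it ranked 7, 8 and 9 (7.78, 8.45 and 8.38 peaks per Mb). Autosomes numbered 4, 6 and 9 lay below it for both marks in all 3 species. The numbers are those of each species, and homology between equal numbers was not checked. A low liver peak density was therefore found on the homologue of human 13 more than on that of human 18. Gene content is a separate measure, by which sheep 23 ranked 3 from the lowest.

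**Figure D2:**
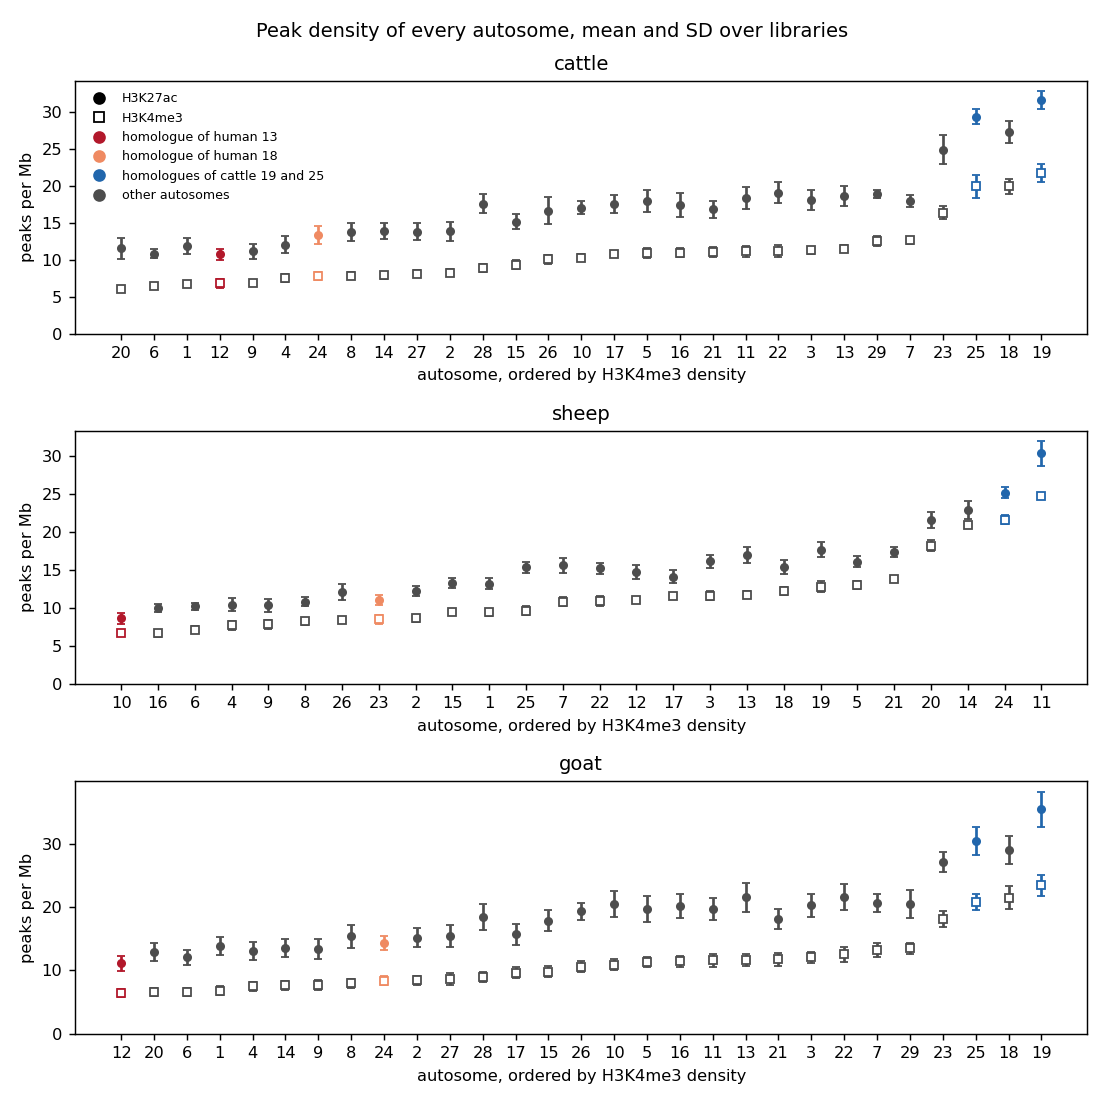
Mean peaks per Mb of every autosome (H3K27ac as filled circles, H3K4me3 as open squares, error bars SD over libraries), ordered by H3K4me3 density within cattle, sheep and goats. The homologues of human 13 (red) lie at or near the left end and those of human 18 (orange) at ranks 7 to 9, while the homologues of cattle 19 and 25 (blue) lie near the right end.

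The deficit was unevenly spread along the chromosomes. Each animal's chromosomes were divided into windows of 1 Mb, and a window was called empty when it held no peak of either mark in that animal. In cattle, 16 of 149 windows of the gene-poor chromosomes were empty in animal B (10.7%) and 17 of 149 in animal C (11.4%), against 5.34 and 6.11% on the other autosomes. In sheep A, B and C, 19, 16 and 12 of 165 windows were empty (11.5, 9.70 and 7.27%), against 6.14, 5.94 and 5.41%. In goats A, B and C, 18, 15 and 16 of 148 were empty (12.2, 10.1 and 10.8%), against 5.0, 4.30 and 4.57%. The difference was 5.12 ± 1.63 percentage points (SD, n = 8), positive in 8 of 8 animals (two-sided exact permutation test by sign flips, p = 0.00781, adjusted p = 0.0104). For the homologue of human 18 alone it was 1.86 percentage points, positive in 6 of 8 animals, and no longer passed the threshold (p = 0.0781, same exact permutation test). Goat 12 had the highest share of empty windows of the goat autosomes (15.5%), cattle 24 and cattle 12 ranked 2 and 3 from the highest in cattle (11.3 and 10.9%), and sheep 10 ranked 2 in sheep (11.3%). Sheep 23 at 6.86% and goat 24 at 4.84% ranked 10 of 26 and 16 of 29.

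Crowded windows were less affected than average ones. The median 1-Mb window held 5 to 9 H3K27ac peaks on the gene-poor chromosomes and 10 to 16 on the other autosomes, a log2 ratio of -0.88 ± 0.21 (SD, n = 8). The window at the 90th percentile held 24.6 to 39.0 and 32.0 to 45.0 H3K27ac peaks, a log2 ratio of -0.32 ± 0.08 (SD, n = 8). Both ratios were negative in all 8 libraries. The spacing between neighbouring H3K27ac peaks had a median of 14.4 to 23.2 kb on the gene-poor chromosomes against 12.5 to 17.6 kb elsewhere, and that of H3K4me3 peaks 33.9 to 43.8 kb against 26.3 to 31.3 kb.

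Stretches longer than 1 Mb without a peak of either mark in any library of the species were counted next. Cattle had 16 on the gene-poor chromosomes, sheep 19 and goats 15. Per 100 Mb these were 10.7, 11.5 and 10.1, against 7.79, 7.59 and 7.0 on the other autosomes. They took up 18.3, 16.04 and 17.1% of the length, against 11.7, 11.1 and 10.4%. The homologue of human 13 carried most of them, with 20.5% of cattle 12, 18.97% of sheep 10 and 21.6% of goat 12 in such stretches. Of the homologue of human 18 such stretches took up 15.3% (cattle 24), 11.9% (sheep 23) and 10.9% (goat 24). These counts pool the libraries of a species and have no replicate error, and unsequenced gaps in the assemblies were not counted.

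The longest of these stretches are given in the numbering of each build. On cattle 24 it was chr24:14788210-19003281, 4.22 Mb, the longest on any cattle autosome. On cattle 12 it was chr12:42183956-45807509, 3.62 Mb and the next longest in cattle. In goats, chr12:78316500-81266884 (2.95 Mb) and chr24:14773593-17715673 (2.94 Mb) ranked 3 and 4 among the stretches of all goat autosomes. Those of sheep were shorter, at 2.16 Mb for chr10:4474071-6632751 and 1.94 Mb for chr23:17792416-19733174, ranking 16 and 27 among the stretches of all sheep autosomes.

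Dense windows also occurred on these chromosomes. The window with most consensus H3K27ac regions (regions found in at least 2 animals) was chr12:86000001-87000000 on cattle 12, with 38, and chr24:2000001-3000000 on cattle 24, with 35. On sheep 10 it was chr10:96000001-97000000 with 37, and on sheep 23 chr23:67000001-68000000 with 35. On goat 12 it was chr12:65000001-66000000 with 45, and on goat 24 chr24:57000001-58000000 with 51. The last held 28 regions without H3K4me3 overlap and 26 H3K4me3 regions. These windows ranked between 88 and 167 among the 2448 to 2641 windows of a species.

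When each chromosome was divided into 10 equal segments, numbered from its start, the sparse and dense parts formed a profile that was alike between species. On cattle 12, H3K27ac density ran from 3.79 peaks per Mb in segment 8 to 20.6 in segment 3, and on sheep 10 from 0.45 in segment 5 to 19.2 in segment 4. The profiles of cattle 12 and sheep 10 had a Pearson correlation of 0.94 for H3K27ac and 0.94 for H3K4me3. Goat 12 had its highest values in segments 7 and 8 (23.1 and 21.7 H3K27ac peaks per Mb). Its profile correlated with cattle 12 at -0.52 for H3K27ac as numbered, and at 0.92 when one of them was read from its end, so the goat profile ran in the opposite direction in the numbering of the builds. For H3K4me3 these values were -0.63 and 0.91. On the homologue of human 18 all species ran in the same direction, with correlations of 0.92 to 0.97 over both marks. There segments 2 and 3 were the sparsest, at 1.85 to 3.59 H3K27ac peaks per Mb, and the last was the densest, at 28.6 peaks per Mb on cattle 24, 23.2 on sheep 23 and 30.8 on goat 24. These correlations run over 10 segments of 1 chromosome, which are not independent, and are given as a description.

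**Figure D3:**
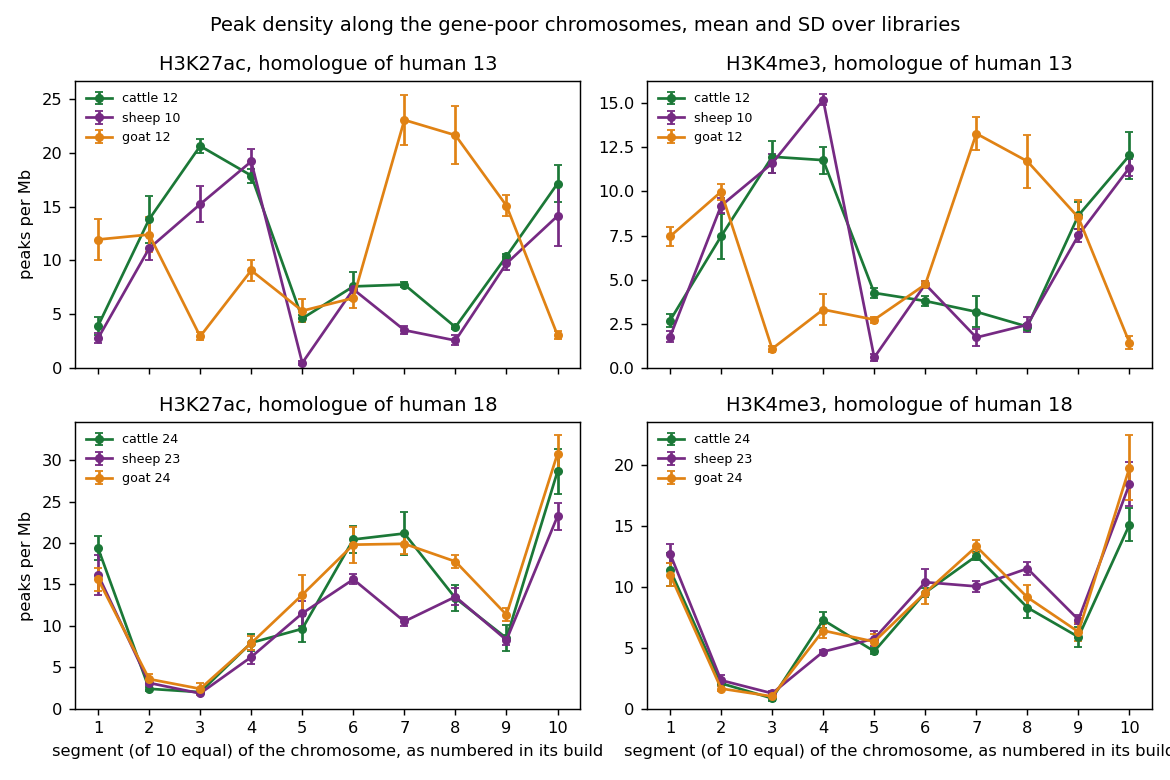
Mean peaks per Mb in each of 10 equal segments of the homologues of human 13 (top) and human 18 (bottom) for H3K27ac (left) and H3K4me3 (right), with SD over libraries, in cattle (green), sheep (purple) and goats (orange). Goat 12 mirrors cattle 12 and sheep 10, and the homologues of human 18 share low values in segments 2 and 3 and the highest in segment 10.

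The next comparison asked whether enhancer-like peaks, H3K27ac without any H3K4me3 overlap in the same animal, made up another share of the peaks on these chromosomes. They made up a larger share than on the other autosomes pooled. In cattle they were 57.3% of the H3K27ac peaks in animal B (956 of 1668) and 57.6% in animal C (1075 of 1866), against 52.9 and 55.4%. In sheep A, B and C the shares were 48.1, 42.2 and 48.1%, against 47.4, 40.5 and 45.2%. In goats A, B and C they were 54.9, 54.2 and 51.1%, against 49.7, 51.1 and 48.3%. The difference was 2.87 ± 1.44 percentage points (SD, n = 8), positive in 8 of 8 animals (two-sided exact permutation test by sign flips, p = 0.00781, adjusted p = 0.0104). Against the median of the other autosomes taken one by one it was 1.2 percentage points, positive in 7 of 8 animals, and the call was lost (p = 0.0859, same exact permutation test). Leaving out the homologues of cattle 19 and 25, a pair of gene-rich chromosomes, from the other autosomes gave 2.0 percentage points (p = 0.0156, same exact permutation test).

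In absolute terms both kinds of H3K27ac peak were sparser. H3K27ac peaks without H3K4me3 numbered 3.78 to 7.45 per Mb on the gene-poor chromosomes and 5.57 to 10.3 elsewhere, a log2 ratio of -0.48 ± 0.08 (SD, n = 8). Those overlapping H3K4me3, which mark promoters, numbered 4.77 to 6.28 and 7.39 to 9.87 per Mb, a log2 ratio of -0.65 ± 0.05 (SD, n = 8). Both ratios were negative in all 8 animals, and the promoter-like peaks fell further in each, which restates the higher share.

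Across the other autosomes the share of H3K27ac peaks without H3K4me3 fell with H3K4me3 density. Within each animal Pearson's r was between -0.93 and -0.85 over 24 or 27 autosomes, which share 1 library and are described without a test. A straight line through the other autosomes of an animal gave the share to be read at the H3K4me3 density of the gene-poor chromosomes. In cattle B and C that share was 57.4 and 59.7%, against 57.3 and 57.6% observed. In sheep A, B and C it was 53.3, 45.7 and 50.3%, against 48.1, 42.2 and 48.1%. In goats A, B and C it was 55.4, 56.5 and 53.6%, against 54.9, 54.2 and 51.1%.

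All 8 animals lay below their line, by 2.29 ± 1.61 percentage points (SD, n = 8, two-sided exact permutation test by sign flips, p = 0.00781, adjusted p = 0.0104). So the share was above that of the other autosomes pooled and below that read at an equal density of the promoter mark. Single autosomes scattered about the line. For instance, goat 15 and goat 17, at 9.78 and 9.63 H3K4me3 peaks per Mb, had mean shares of 52.7 and 46.9%. That scatter was not measured here, so the shortfall cannot be called particular to these chromosomes. The distance below the line was called on the homologue of human 13 and not on that of human 18. For the homologue of human 13 alone the difference was -3.45 percentage points (p = 0.00781), and for the homologue of human 18 alone -0.78 percentage points (p = 0.336, both by the same exact permutation test). In goats A, B and C and sheep B and C, the homologue of human 13 had fewer H3K4me3 peaks per Mb than any autosome of the line. The line was thus extended past its range there. With the 20000 strongest peaks of each library the difference was -0.61 percentage points and did not pass (p = 0.547, same exact permutation test), and 5 of 8 animals then lay above their line.

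**Figure D4:**
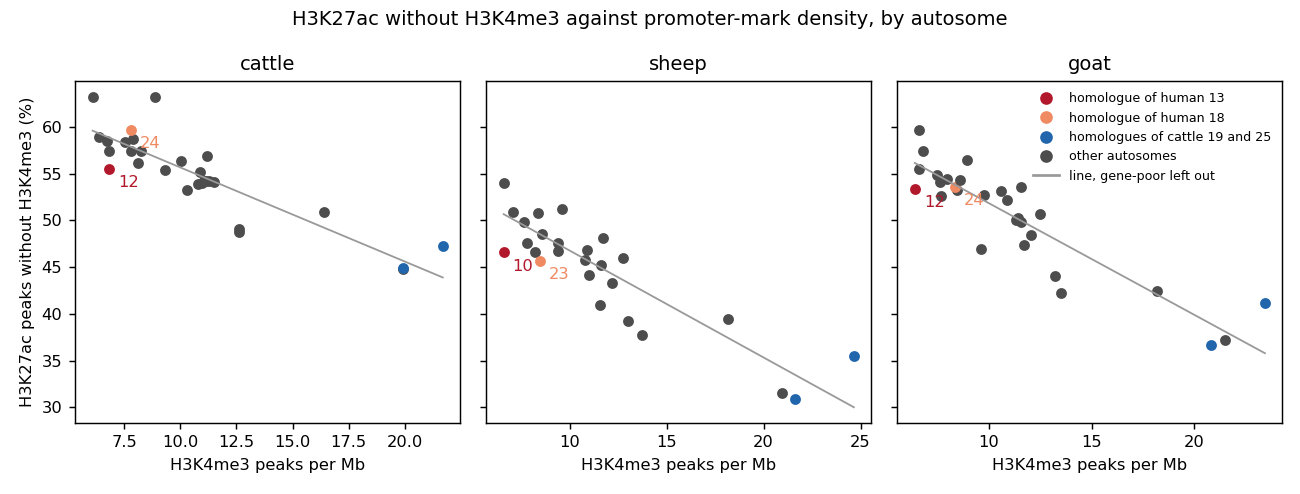
Share of H3K27ac peaks without H3K4me3 overlap (percent) against H3K4me3 peaks per Mb for every autosome, as means over animals, with a straight line through the autosomes other than the gene-poor ones. Cattle 12, sheep 10 and goat 12 (red) lie below the line at low density, while cattle 24 (orange) lies above it, sheep 23 below it and goat 24 close to it.

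On single chromosomes, cattle 24 had a share of 59.7 ± 0.25% (SD, n = 2), rank 3 of 29 cattle autosomes, and cattle 12 had 55.5 ± 0.14%, rank 14 from the highest. Sheep 10 had 46.6 ± 3.68% and sheep 23 had 45.6 ± 3.46% (SD, n = 3), ranks 13 and 16 of 26 from the highest. Goat 12 had 53.3 ± 2.37% and goat 24 had 53.5 ± 1.68% (SD, n = 3), ranks 11 and 9 of 29. In sheep and goats the sign of the difference between the homologues varied among the animals.

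The distance from an H3K27ac peak without H3K4me3 to the nearest H3K4me3 peak of the same animal, edge to edge, was longer on the gene-poor chromosomes. The median was 27.8 kb in cattle B and 18.9 kb in cattle C, against 22.2 and 17.9 kb elsewhere. In sheep A, B and C it was 23.6, 16.5 and 18.7 kb, against 19.2, 14.9 and 15.5 kb. In goats A, B and C it was 26.3, 19.9 and 20.01 kb, against 22, 17.4 and 17.2 kb. The log2 ratio was 0.22 ± 0.08 (SD, n = 8), a ratio of 1.17, and was positive in 8 of 8 animals (two-sided exact permutation test by sign flips, p = 0.00781, adjusted p = 0.0104). H3K4me3 peaks were sparser on these chromosomes, and unlike the share, the distance was not read at an equal H3K4me3 density.

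That longer distance was called on the homologue of human 13 and not on that of human 18. For the former alone the log2 ratio was 0.36 (p = 0.00781), and for the latter alone it was 0.04, positive in 4 of 8 animals (p = 0.414, both by the same exact permutation test). The median on the homologue of human 13 was 18.5 to 32.0 kb over the animals, and on that of human 18 it was 13.6 to 25.9 kb. Ranked among all autosomes of the species from the longest mean distance, sheep 10 was 3 of 26 (21.7 kb), goat 12 was 5 of 29 (25.5 kb) and cattle 12 was 8 of 29 (24.1 kb). Cattle 24 ranked 12 (22.7 kb), sheep 23 ranked 13 (17.1 kb) and goat 24 ranked 18 (18.7 kb). The longest were cattle 20 at 34.9 kb, sheep 4 at 26.7 kb and goat 4 at 30.8 kb. With the centre distance of all H3K27ac peaks in place of the edge distance of those without H3K4me3, the log2 ratio was 0.75, and with the 20000 strongest peaks of each library it was 0.53, each positive in 8 of 8 animals. The centre distance includes the peaks that overlap H3K4me3, so it also moves with their share and is another quantity than the edge distance.

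By class of distance, the far class differed most between the pooled gene-poor and the other autosomes, and its excess lay on the homologue of human 13. H3K27ac peaks without H3K4me3 at 100 kb or more from any H3K4me3 peak made up 11.9 to 19.4% on the gene-poor chromosomes and 9.53 to 14.97% elsewhere. The difference was 3.84 ± 1.95 percentage points (SD, n = 8) and positive in 8 of 8 animals. On the homologue of human 13 that class held 15.1 to 26.4% of such peaks, or 68 to 126 per animal, which was above the other autosomes in 8 of 8 animals, by 8.33 ± 2.85 percentage points (SD). On the homologue of human 18 it held 6.25 to 12.96%, which was below the other autosomes in 6 of 8 animals, with a mean difference of -1.03 ± 2.34 percentage points (SD, n = 8). The class under 5 kb was smaller on the gene-poor chromosomes, by -2.55 ± 1.45 percentage points (SD, n = 8). The classes of 5 to 50 kb and 50 to 100 kb differed by -1.21 ± 1.18 and -0.07 ± 1.41 percentage points, and the sign varied among animals. The farthest such peak of the gene-poor chromosomes lay 2189 kb from an H3K4me3 peak, in sheep A, and the farthest on the other autosomes 2479 kb, in cattle C.

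**Figure D5:**
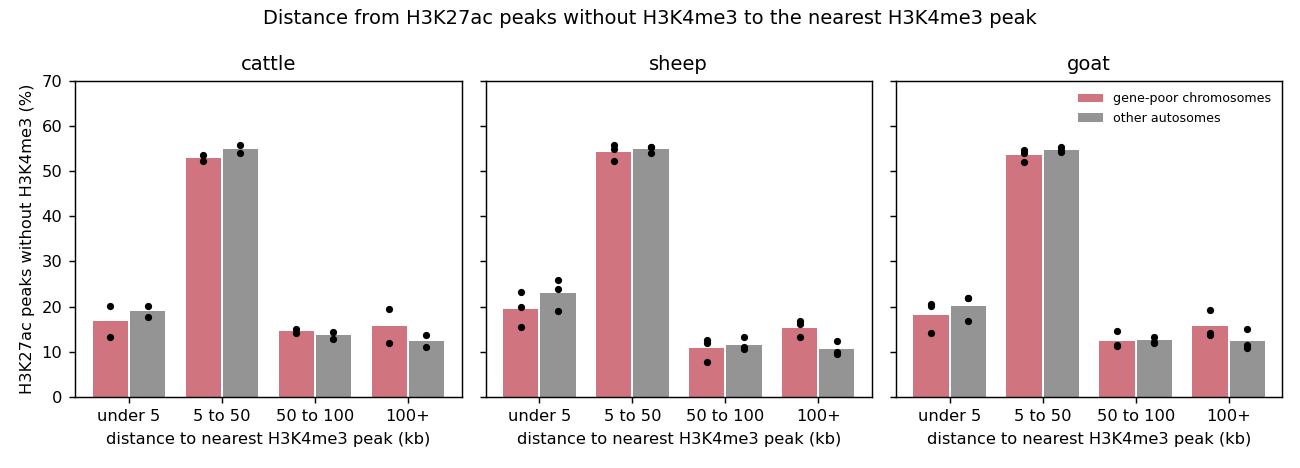
Percent of H3K27ac peaks without H3K4me3 in 4 classes of distance to the nearest H3K4me3 peak (kb), as means (bars) with each animal as a point, on the gene-poor chromosomes (red) and the other autosomes (grey). The class of 100 kb or more is higher on the pooled gene-poor chromosomes in all 8 animals, by 3.84 percentage points on average, although the homologue of human 18, not drawn apart, lies below the other autosomes in 6 of 8.

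The reverse class, H3K4me3 peaks without H3K27ac overlap in the same animal, was also enlarged. In cattle B and C it made up 31.3 and 30.0% of the H3K4me3 peaks on the gene-poor chromosomes, against 26.8 and 27.95% elsewhere. Sheep A, B and C had 33.8, 38.6 and 34.6%, against 30.9, 34.98 and 30.5%. Goats A, B and C had 27.2, 27.6 and 31.0%, against 21.3, 23.6 and 26.02%. The difference was 4.0 ± 1.18 percentage points (SD, n = 8), positive in 8 of 8 animals (two-sided exact permutation test by sign flips, p = 0.00781, adjusted p = 0.0104), and it kept this call under every alternative tried, at 3.52 to 4.45 percentage points. Goat 24 had the highest such share of the goat autosomes (29.3%), and the other 5 chromosomes ranked 4 to 7 from the highest in their species. These H3K4me3 peaks lay 21.5 to 29.7 kb in the median from the nearest H3K27ac peak, against 11.9 to 16.2 kb on the other autosomes, a log2 ratio of 0.74 ± 0.14 (SD, n = 8). H3K27ac peaks were sparser on these chromosomes, and this distance was not read at an equal H3K27ac density.

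Peak shape differed little for H3K27ac and more for H3K4me3. The median width of an H3K4me3 peak was 623.5 to 728.5 bp in the libraries on the gene-poor chromosomes and 702 to 808 bp elsewhere. The log2 ratio was -0.18 ± 0.05 (SD, n = 9), negative in 9 of 9 libraries (two-sided exact permutation test by sign flips, p = 0.00391, adjusted p = 0.0104). Among the H3K4me3 peaks that overlapped H3K27ac it was -0.09 (p = 0.00781), and among the 20000 strongest peaks of each library -0.07 (p = 0.00391, both by the same exact permutation test). The homologue of human 18 had the narrowest H3K4me3 peaks of all autosomes in cattle (644 bp), sheep (625 bp) and goats (692 bp), as means of the libraries' medians, and cattle 12 ranked second narrowest at 650 bp. H3K27ac peaks had a median width of 443 to 497 bp against 458 to 521 bp, a log2 ratio of -0.06 ± 0.01 (SD, n = 8, same exact permutation test, p = 0.00781, adjusted p = 0.0104). For H3K27ac peaks without H3K4me3 it was -0.01, positive in 4 of 8 animals (p = 0.562, same exact permutation test). With the 20000 strongest peaks of each library it was also -0.01 (p = 0.609), and with close peaks merged -0.15 (p = 0.00781, both by the same exact permutation test).

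Fold enrichment over background, as given by the authors' peak caller, was slightly lower for H3K4me3 peaks as a whole and slightly higher for H3K27ac peaks, and for H3K4me3 the sign of the mean differed with overlap of the other mark. The median H3K4me3 fold enrichment of a library was 6.02 to 7.33 on the gene-poor chromosomes against 6.52 to 7.53 elsewhere, a log2 ratio of -0.06 ± 0.03 (SD, n = 9), negative in 9 of 9 libraries (two-sided exact permutation test by sign flips, p = 0.00391, adjusted p = 0.0104). The median H3K27ac fold enrichment was 3.68 to 4.10 against 3.67 to 4.02, a log2 ratio of 0.02 ± 0.01 (SD, n = 8), positive in 7 of 8 libraries (same exact permutation test, p = 0.0156, adjusted p = 0.0195). For H3K27ac peaks without H3K4me3 the log2 ratio was 0.05 ± 0.02 (SD, n = 8), positive in 8 of 8 animals (same exact permutation test, p = 0.00781), and for those overlapping H3K4me3 it was 0.01 ± 0.03, positive in 6 of 8. For H3K4me3 peaks without H3K27ac it was 0.05 ± 0.04 (SD, n = 8), positive in 6 of 8, and for those overlapping H3K27ac it was -0.05 ± 0.02, negative in 8 of 8. The call for all H3K27ac peaks was lost with the strongest peaks (log2 ratio 0.02, p = 0.0938), with close peaks merged (0.01, p = 0.25) and with the homologue of human 18 alone (0.01, p = 0.125), all by the same exact permutation test. Peaks with several summits were fewer on the gene-poor chromosomes for both marks, by 1.90 ± 1.01 percentage points for H3K27ac (SD, n = 8) and 1.99 ± 1.13 for H3K4me3 (SD, n = 9), in every library.

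Recurrence, for which a peak had to share at least 50% of its bases with a peak of another animal of the species, was given as a percentage of each library's peaks and was a little lower. For H3K27ac it was 60.6 to 84.6% on the gene-poor chromosomes and 63.8 to 86.0% on the other autosomes. The difference was -2.04 ± 1.15 percentage points (SD, n = 8), negative in 8 of 8 libraries (two-sided exact permutation test by sign flips, p = 0.00781, adjusted p = 0.0104). For H3K4me3 it was 81.3 to 96.4% and 84.3 to 97.0%, a difference of -1.82 ± 1.26 percentage points (SD, n = 9), negative in 9 of 9 (same exact permutation test, p = 0.00391, adjusted p = 0.0104). Within 4 classes of fold enrichment the mean differences were -2.21 for H3K27ac (p = 0.00781) and -1.34 for H3K4me3 (p = 0.0195, both by the same exact permutation test). With the 20000 strongest peaks of each library they were -1.36 and -1.06 percentage points (p = 0.00781 and p = 0.00391, same exact permutation test). The H3K4me3 call was lost for the homologue of human 18 alone (-1.84 percentage points, p = 0.0547, same exact permutation test). Cattle H3K27ac has 2 libraries, so there recurrence is the overlap of a single pair of animals. The animals of a species enter each other's recurrence, so these values are not independent and the p-values for recurrence do not allow for that.

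Consensus regions were built per species from peaks found in at least 2 animals. The study's rule of overlap over at least 50% of the length was applied here to the H3K27ac region, so a promoter was an H3K27ac region with that much of its length under an H3K4me3 region, and an enhancer was an H3K27ac region with no H3K4me3 overlap. The gene-poor chromosomes held 649 promoters and 613 enhancers in cattle, 787 and 573 in sheep, and 797 and 839 in goats. Promoters numbered 4.35, 4.75 and 5.34 per Mb in the 3 species, against 6.75, 7.49 and 8.42 on the other autosomes. Enhancers numbered 4.10, 3.46 and 5.63 per Mb, against 5.56, 5.28 and 7.75. Of the H3K27ac regions, 47.1% were enhancers in cattle, 41.1% in sheep and 49.9% in goats, compared with 44.1, 40.3 and 46.7%. Within cattle, chromosome 12 had 43.9% and chromosome 24 had 50.6% enhancers. Consensus counts give 1 value per species and have no replicate error.

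The strongest regions, by the rank of −log10 q among the peaks of the gene-poor chromosomes over all libraries of a mark, carried both marks. On cattle 12 the H3K27ac region was chr12:878030-878374, 345 bp wide with fold enrichments of 30.9 to 32.5, and the H3K4me3 region chr12:878029-878395 had 33.8 to 34.2. On cattle 24 they were chr24:21071789-21072153 (27.5 to 30.2) and chr24:21071794-21072150 (35.2 to 38.4). These cattle regions were thus narrow, at 345 to 367 bp, shared by both marks and far above the median fold enrichment of the libraries. In sheep the H3K27ac regions were chr10:15393-16060 (668 bp, 17.5 to 19.6) and chr23:25874376-25875210 (835 bp, 14.6 to 16.7). The sheep H3K4me3 regions were chr10:15325242-15326330 (1089 bp, 17.3 to 17.9) and chr23:856325-858044 (1720 bp, 10.4 to 11.1). In goats the H3K27ac regions were chr12:53563308-53564664 (1357 bp, 11.2 to 14.97) and chr24:39139683-39141256 (1574 bp, 12.2 to 14.4). The goat H3K4me3 regions were chr12:73396442-73397497 (1056 bp, 15.5 to 18.2) and chr24:586549-588283 (1735 bp, 10.2 to 10.5). Which genes or repeats lie at these positions was not analysed here.

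The widest regions were weaker. The widest H3K27ac regions were chr12:16491667-16494161 in cattle (2495 bp, fold enrichment 3.48 to 4.22), chr10:17707832-17710337 in sheep (2506 bp, 6.0 to 6.79) and chr12:70069102-70071794 in goats (2693 bp, 4.02 to 4.41). All 3 met this rule for a promoter. The widest H3K4me3 regions were chr12:49047007-49050155 in cattle (3149 bp), chr23:54046916-54050247 in sheep (3332 bp) and chr24:48832281-48835625 in goats (3345 bp). Each overlapped H3K27ac over 996 to 1257 bp, less than 50% of its length.

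The last comparison asked whether the deficit of peaks differed between the species. For H3K27ac, cattle had a log2 ratio of gene-poor to other autosomes of -0.49 ± 0.01 (SD, n = 2), sheep one of -0.61 ± 0.03 (SD, n = 3) and goats one of -0.56 ± 0.01 (SD, n = 3). The values of the species did not overlap between cattle (-0.49 to -0.48) and the others (-0.64 to -0.55). The exact permutation test of species labels over the 8 libraries gave F = 19.7 (p = 0.00714, adjusted p = 0.0104). Against the median autosome the call was lost (F = 6.22, p = 0.0607, same exact permutation test). For H3K4me3, cattle had -0.51 ± 0.04, sheep -0.57 ± 0.01 and goats -0.57 ± 0.01 (SD, n = 3 each), with F = 5.47 (p = 0.0286, adjusted p = 0.0336, exact permutation test). That call was lost when goat A, B or C or sheep B or C was left out (F = 4.14 to 4.90, p = 0.0571 to 0.0714, exact permutation tests), and F was 11.9 without cattle B. It was also lost at −log10 q of at least 5, with close peaks merged, against the median autosome and for the homologue of human 18 alone (F = 0.234 to 2.61).

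The share and the distance were not told apart between species at this number of animals. For the excess of H3K27ac peaks without H3K4me3, cattle had 3.27 ± 1.55 percentage points (SD, n = 2), sheep 1.73 ± 1.07 and goats 3.75 ± 1.29 (SD, n = 3 each), with F = 2.04 (p = 0.214, adjusted p = 0.238, exact permutation test). With the 20000 strongest peaks of each library F was 19.2 (p = 0.0179) and for the homologue of human 18 alone 10.2 (p = 0.0214, both by the exact permutation test). For the log2 ratio of the distance, cattle had 0.20 ± 0.17 (SD, n = 2), sheep 0.24 ± 0.08 and goats 0.22 ± 0.03 (SD, n = 3 each), with F = 0.092 (p = 0.911, adjusted p = 0.959, exact permutation test). Breed, build and age range go with species in this design, so they cannot be told apart from it.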

How the data were processed

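Liver ChIP-seq peak lists of 17 libraries were used, grouped by the species and mark in the sample titles. The 9 input samples have no list here. Per the labels and the study's methods, reads were trimmed by the authors with Trim Galore 0.4.0 and aligned with BWA 0.7.17. Duplicates were removed with Picard 2.25.0, libraries were subsampled to a common number of reads, and MACS2 2.1.1 called narrow peaks at q under 0.01. The builds ARS-UCD1.2 (cattle), Oar_rambouillet_v1.0 (sheep) and ARS1 (goats) are those of the methods. The labels list ARS-UCD1.2 for the samples of all 3 species, and the sheep and goat coordinates are printed under the builds of the methods. The deposited lists give each peak's fold enrichment, a ratio to background, and −log10 values of its p-value and of its q-value. The deposited integer score was not used, and neither was the −log10 p. A list has 1 entry per summit (840697 in all), and entries of identical start and end became 1 peak, for which the largest fold enrichment and the largest −log10 q were kept. Read depth is not part of a list, so precision rests on 2 or 3 animals per group. Homology with human 13 and 18 was taken as known and no alignment was made.

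Densities are peaks per Mb up to the highest peak end on a chromosome. A peak without the other mark shares no base with it in the same animal. Log2 ratios or differences in percentage points were formed within a library and tested by exact two-sided permutation, flipping signs over animals or permuting mark labels within species. F for species has no direction. The threshold was 0.05, with Benjamini-Hochberg adjustment over 20 tests. Counts along segments, gaps and consensus regions are descriptive. Python 3.11.15 with numpy 2.4.6, pandas 2.3.3, scipy 1.17.1 and matplotlib 3.10.9 was used. The tests were checked on simulated data and the overlaps against bedtools 2.31.1, where 0 of 40457 peaks differed. Within a species and mark, at most 0.0135% of peaks had identical coordinates in 2 animals, so no library was a copy of another.

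Named regions were, per chromosome and mark, the consensus region with the best worst-case rank over libraries when peaks are ranked by −log10 q, the widest region per species and mark, the longest stretch without peaks and the densest 1-Mb window. Alternatives were −log10 q of at least 5, the 20000 strongest peaks, peaks within 500 bp merged, summits in place of peaks, length from first to last peak, the median autosome, the other autosomes without the homologues of cattle 19 and 25, other overlap and distance rules, a paired test of marks and leaving out each animal. Each homologue alone, fold classes and peaks with or without the other mark were chosen after seeing the data. The chromosomes and measures were chosen with earlier results of these data known. Animal letters pair the marks of 1 liver, as the titles give them. Deviations of the log2 density ratio from the group means correlated between the marks of 8 animals at r = 0.54 (p = 0.264) and rho = 0.60 (p = 0.236, exact permutation over 72 arrangements), and at r = 0.044 without the 2 animals farthest from the median. Sheep coding genes were counted by chromosome name in a table of assembly ARS-UI_Ramb_v3.0, whose coordinates were not used. No sequence, gene name or annotation of the builds was used here.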

Additional observations from a re-analysis of the deposited data

Results flagged for a closer look

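The deficit of H3K27ac peaks on the gene-poor chromosomes differed between the species, with F = 19.7 in the exact permutation test of species labels over 8 libraries (p = 0.00714). Cattle had the smallest deficit (ratio of densities on the log2 scale -0.49, n = 2) and sheep the largest (-0.61, n = 3), with goats at -0.56 (n = 3). Leaving out 1 animal at a time, F lay between 9.68 and 76.8, with the highest value without sheep C, whose log2 ratio of -0.57 was the smallest deficit in sheep, and the lowest without cattle C. For the homologue of human 13 alone F was 7.30 (p = 0.0321, same exact permutation test). Against the median autosome the call was lost (F = 6.22, p = 0.0607, same exact permutation test). Cattle are represented by 2 H3K27ac libraries, from animals B and C.

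The H3K4me3 deficit passed the test on all peaks, with F = 5.47 (p = 0.0286, exact permutation test over 9 libraries), and cattle again had the smallest deficit, at -0.51 against -0.57 in sheep and goats (n = 3 each). On the homologue of human 13 alone F was 23.4 (p = 0.00714) and on that of human 18 alone 1.77 (p = 0.282, both by the same exact permutation test). The H3K4me3 log2 ratio was -0.60 ± 0.05 on cattle 12, -0.73 ± 0.01 on sheep 10 and -0.75 ± 0.02 on goat 12 (SD, n = 3 each). With the 20000 strongest peaks of each library F was 53.2 (p = 0.00357, exact permutation test). The call was lost at the strict threshold (F = 2.61, p = 0.154), with close peaks merged (F = 2.11, p = 0.211) and against the median autosome (F = 0.234, p = 0.775, all by exact permutation tests). It was also lost without goat A, B or C or sheep B or C (F = 4.14 to 4.90, p = 0.0571 to 0.0714, all by exact permutation tests). Each species has its own breed, build and age range, which cannot be told apart from it.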

How the results depend on the processing

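Of 331 alternative values, 296 kept the direction and the side of the threshold, 21 lost the threshold, 3 gained it and 11 changed sign. All 11 changes of sign concerned the difference between marks in the deficit, 0.0003 on the log2 scale: it was -0.0030 at the strict threshold, -0.0086 with the strongest peaks, -0.015 without the gene-rich autosomes, -0.0020 for summits, -0.036 against the median autosome and -0.016 for the homologue of human 13 alone, and -0.0037 to 0.0072 without 1 animal. It passed the threshold with close peaks merged, at 0.041. The paired test of marks within an animal, the replicate block, gave 0.0019 (p = 0.906, exact permutation over 8 animals).

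Against the median autosome the share of H3K27ac peaks without H3K4me3 lost its call (1.2 percentage points), as did the species comparisons of density (F = 6.22 for H3K27ac, 0.234 for H3K4me3). With the strongest peaks, the calls for the share at equal density (-0.61 percentage points), H3K27ac width (-0.0095) and H3K27ac fold enrichment (0.025, log2) were lost, and the species differed in the excess of H3K27ac peaks without H3K4me3 over the pooled autosomes (F = 19.2). The H3K27ac width call was also lost for peaks without the other mark (-0.0051). With close peaks merged, H3K27ac fold enrichment (0.0091) and the species comparison for H3K4me3 (F = 2.11) were lost, the latter also at the strict threshold (2.61) and without goat A, B or C or sheep B or C (4.14 to 4.90). Over the omission of each of the 9 animals, F ran from 3.88 to 11.9, the extremes being without cattle C and cattle B, where the call was kept.

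For the homologue of human 18 alone, the calls were lost for the share at equal density (-0.78 percentage points), the distance (0.045, log2), empty windows (1.86 percentage points), H3K27ac fold enrichment (0.011), H3K4me3 recurrence (-1.84 percentage points) and the H3K4me3 species comparison (F = 1.77), and gained for the species comparison of the excess over the pooled autosomes (F = 10.2). The cause of these changes was not tested. Both densities, the H3K4me3-only share, H3K4me3 width and fold enrichment, H3K27ac recurrence and the contrast of both homologues kept their calls under all alternatives run. The methods bring the paired-end libraries to a common number of reads before peaks were called, and read numbers per library were not analysed here.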
